A study of Homo sapiens with 4 samples.

Results

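Nuclear pseudogenes of mitochondrial genes are copies of stretches of mitochondrial DNA that were inserted into the nuclear chromosomes. The mitochondrial chromosome encodes subunits of the respiratory chain and of ATP synthase and the RNAs of its own ribosome. Its genes lack introns and are transcribed inside the organelle, whereas a nuclear copy can be transcribed only as part of nuclear RNA. Because of a different genetic code and accumulated mutations, such copies are not thought to make the parent proteins, and one insertion often carries several neighbouring genes in their mitochondrial order.

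The pseudogenes were taken as every array row with a single gene symbol that begins with MTND, MTCO, MTATP, MTCYB or MTRNR and ends in P and a number. This gave 331 rows of 135750 tested, 1 row for each of 331 symbols, together with 4 unnamed rows next to the copies MTND1P14 and MTND2P12. RNA came from the H929 line, grown from a human myeloma and long established in culture. Cells were either untreated (2 arrays) or exposed to meayamicin B at 3 nM (2 arrays), with 8 h named for both groups. Meayamicin B is a synthetic inhibitor of pre-mRNA splicing, whose target SF3B belongs to the U2 particle that recognises the branch site of introns. All cells were of a single line, and the labels name no vehicle for the untreated cells and do not say whether replicates were separate cultures, so the spread between arrays may be technical.

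The values are log2 expression made by the authors with RMA. Precision is limited by the number of arrays, 2 in each group. A row was taken as above background when both arrays of at least 1 group lay above a limit set within each array, the 95th percentile over 612 negative control rows. This limit lay at 4.50 and 4.76 in the untreated arrays and at 5.03 and 5.13 in the treated arrays. Pearson's r over all rows tested, which are not independent, was 0.984 for the untreated arrays, 0.981 for the treated arrays and 0.975 to 0.980 across groups. All 8 plasma cell markers examined were above background, between 8.91 and 13.3, and 1 of them, PRDM1, passed in the trended fit described below. Of 4 T cell markers 1 was above background, as were 1 of 4 monocyte, 2 of 3 erythroid and 2 of 4 fibroblast markers, and 0 of these passed in either limma fit. The level of a row depends on its probes and on related sequences they can bind, so levels were compared between arrays and not between rows. A higher value in an RNA pool of many cells can mean more RNA per cell or more cells with the RNA, which cannot be told apart here.

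Of the 331 copies, 248 lay in 68 groups of adjacent rows, defined by identifier numbers at most 3 apart on a chromosome, and 83 stood alone. The largest group held 10 copies. In 28 groups the copies followed the order of the mitochondrial genes with rising number, in 30 the reverse order and in 10 a mixed order. The strand of the copies is not given in the tables used. A reverse order by number is therefore not read as an inverted order of genes within an insertion. Grouped instead by RefSeq coordinates at most 10000 bases apart, 273 copies lay in 71 groups and 58 stood alone. A copy that stands alone by number can thus lie close to others. All 331 matched a RefSeq gene (GRCh38.p14) on the chromosome named by the row identifier, on 24 chromosomes in all. Their median length was 681 bases, and 163 had 90% to 110% of the length of the mitochondrial gene while 64 had under 50%. By origin, 180 rows were copies of complex I genes, 29 of cytochrome b of complex III, 100 of complex IV genes and 22 of ATP synthase genes, and 0 rows chosen by this rule were copies of the ribosomal RNA genes.

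Most copies stayed below the background limit. In 293 of 331 rows no array exceeded background, and 36 rows, or 10.9%, were above background, against 22.5% of all rows tested. Among the 36 were 20 copies of complex I genes, 3 of cytochrome b, 11 of complex IV genes and 2 of ATP synthase genes.

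The copies that passed in the default or the trended limma fit were neighbours on chromosome 17. MTND1P14 and MTND2P12 rose after meayamicin B, and MTCO1P39 beside them passed as higher only in the trended fit, described below. These copies derive from ND1 and ND2, genes of membrane subunits of complex I, and from COX1, the gene of the catalytic subunit of complex IV. They lie within 3675 bases, in the order their parent genes have on the mitochondrial chromosome.

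MTND1P14, a copy of ND1 on chromosome 17 at 19602259 to 19603205 (GRCh38), was at 4.71 and 4.25 in the untreated arrays and at 7.88 and 7.83 in the treated arrays on the log2 scale. Both treated arrays lay far above both untreated arrays, of which 1 exceeded background. Its mean went from 4.48 ± 0.33 to 7.86 ± 0.03 (SD, n = 2 arrays per group). The ratio of these means was 10.4-fold, but the untreated mean lay below both untreated background limits, so this ratio rests on a level near background. The log2 difference was 3.38 (SE 0.22, 95% confidence interval from 2.86 to 3.90), with a limma adjusted p = 0.0351. Same-numbered arrays differed by 3.17 and 3.59. Without any 1 of the 4 arrays in turn the difference stayed between 3.15 and 3.61 but lost its call in the default fit (limma adjusted p = 0.122 to 0.216), and it kept its call in the trended fit described below (limma adjusted p = 0.000551 to 0.00393).

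MTND2P12, a copy of ND2 at 19603845 to 19605044, was at 3.36 and 3.66 untreated and at 7.07 and 7.16 treated. No untreated array exceeded background and both treated arrays did. The rise is therefore given as at least 5.62-fold, the treated mean against the mean background limit of the untreated arrays. The limits of the treated arrays were higher, at 5.03 and 5.13. The log2 difference of the measured values was 3.60 (SE 0.20, 95% confidence interval from 3.13 to 4.08), with a limma adjusted p = 0.0231. Same-numbered arrays differed by 3.71 and 3.50. Without any 1 array in turn the difference lay between 3.45 and 3.76, with limma adjusted p = 0.122 to 0.216 in the default fit and 0.000551 to 0.00393 in the trended fit. Of all rows tested, 0.0118% were called higher in this fit, 0.00442% lower and 0.0162% in either direction. Of the 331 copies 2 were called, or 0.604%, both higher; these copies had drawn attention in earlier results of the same data, and nothing is read from that share.

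MTCO1P39, a copy of COX1 at 19605454 to 19605933, was at 2.90 and 2.89 untreated and at 4.48 and 4.90 treated. The groups did not overlap, but no array of either group exceeded background, so no fold is given. Its log2 difference of 1.80 (SE 0.21) did not pass in the default fit (limma adjusted p = 0.0713) and passed in the trended fit (limma adjusted p = 0.0119), in which the prior variance follows the signal level. The trended fit called MTND1P14 and MTND2P12 as well, each with limma adjusted p = 0.000714. It called 3 copies higher and 0 lower, or 0.906%, against 0.248% higher and 0.922% lower of all rows. In the trended fit MTCO1P39 lost its call without untreated replicate 1, without untreated replicate 2 or without treated replicate 2, which left 2 copies called in each case.

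**Figure D1:**
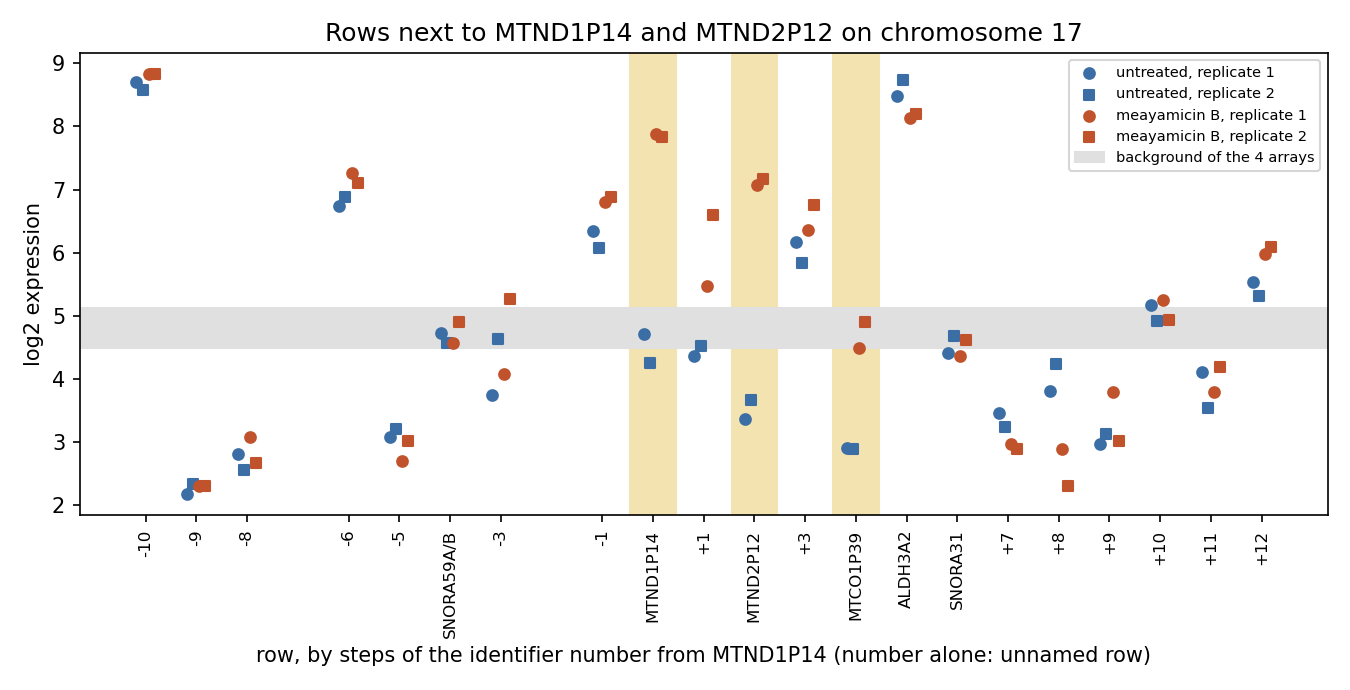
Log2 expression in each of the 4 arrays for the rows around MTND1P14 and MTND2P12, in the order of their identifier numbers, with the 3 pseudogene rows shaded and the range of the 4 background values in grey. MTND1P14 and MTND2P12 lie between 7.07 and 7.88 in the treated arrays and between 3.36 and 4.71 in the untreated arrays.

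The 4 unnamed rows next to these copies were examined next. The row numbered between MTND1P14 and MTND2P12 was at 4.37 and 4.53 untreated and at 5.47 and 6.60 treated. No untreated array exceeded background and both treated arrays did. This row had a treated mean 2.65-fold the mean background limit of the untreated arrays, which sets no lower bound on its rise. Its log2 difference of 1.59 (SE 0.35) did not pass in the default fit (limma adjusted p = 0.205) or the trended fit (limma adjusted p = 0.0592), and its treated arrays differed more from each other than those of the named copies.

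The row numbered just before MTND1P14 was at 6.35 and 6.08 untreated and at 6.81 and 6.88 treated, a log2 difference of 0.63 (SE 0.20). The row between MTND2P12 and MTCO1P39 was at 6.17 and 5.83 untreated and at 6.36 and 6.76 treated, a difference of 0.56 (SE 0.23). Both were above background in all arrays, and in both the treated arrays were the higher ones by less than 1 log2 unit. The row 3 numbers before MTND1P14 was at 3.75 and 4.64 untreated and at 4.08 and 5.26 treated, and its groups overlapped. In limma 0 of these 4 rows passed in either fit, and 3 had an unadjusted p under 0.05, which 9.42% of all rows had. The 30594 rows above background, fitted alone, held 6779 with such a p. In 3 of the 4 unnamed rows both treated arrays lay above both untreated arrays, as in 21.1% of all rows. The 4 rows have no gene name or coordinates in the tables used, so their place is known only from the numbering.

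Numbers on chromosome 17 run by strand. Within 250 numbers of MTND1P14, 47 of 50 genes with a strand in the RefSeq promoter table were on the plus strand, and around NMTRQ-TTG12-1 it was 51 of 52 on the minus strand. NMTRQ-TTG12-1 is a pseudogene of the mitochondrial tRNA for glutamine, which the mitochondrial chromosome encodes on the strand opposite to ND1 and ND2, and it lies inside the same insertion at 19603274 to 19603345. Its row was at 4.29 and 3.79 untreated and at 4.96 and 4.66 treated, below background in all 4 arrays. The log2 difference was 0.77 (SE 0.24, limma adjusted p = 0.364). Of the 7 rows within 3 numbers of it, its own included, 0 passed in either limma fit. An unadjusted limma p under 0.05 was found in 3 of the 7, against 9.42% of all rows. These were its own row, an unnamed row with a log2 difference of 0.45 and SLC47A2, which was lower, with -0.62. The unnamed row was below background in all arrays.

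**Figure D2:**
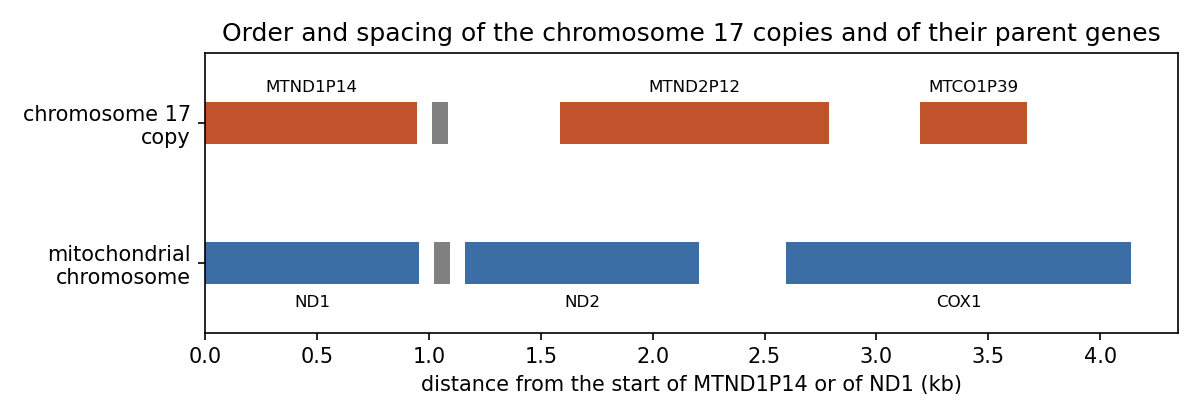
Position of the chromosome 17 copies (upper bars, distance in kb from the start of MTND1P14) and of their parent genes on the mitochondrial chromosome (lower bars, distance in kb from the start of ND1), from RefSeq, with the tRNA for glutamine and its copy in grey. The order is shared, the copy of ND2 is longer than its parent and the copy of COX1 holds 31.1% of the parent's length.

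The copies kept the spacing of the mitochondrial genes only in part. MTND1P14 had 947 bases, or 99.1% of ND1, and the tRNA copy began 1015 bases after its start, against 1022 bases on the mitochondrial chromosome. MTND2P12 began 1586 bases after the start of MTND1P14, against 1163 bases between the parents, and at 1200 bases it had 115% of the length of ND2. MTCO1P39 had 480 of the 1542 bases of COX1. The insertion lay outside RefSeq genes other than its own copies. Before it lay SLC47A1P1, which ends 6.2 kb away, and the transporter gene SLC47A1, which ends 23.2 kb away, and after it lay SLC47A1P2 at 23.1 kb and ALDH3A2, an aldehyde dehydrogenase gene, at 42.2 kb.

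Of the flanking genes, SLC47A1 was at 8.45 and 8.51 untreated and at 8.15 and 8.26 treated, a log2 difference of -0.27 (SE 0.19, limma adjusted p = 0.729). ALDH3A2 was at 8.49 and 8.74 untreated and at 8.14 and 8.20 treated, a difference of -0.44 (SE 0.20, limma adjusted p = 0.550). In each gene both treated arrays lay below both untreated arrays, and neither passed in either fit. SLC47A1P1 and SLC47A1P2 had no row of their own. A second group of copies on the same chromosome, at 22519617 to 22531392, with MTCYBP13, MTND1P15, MTND2P13, MTATP6P3 and MTCO3P13, had no row above background and log2 differences from -0.52 to 0.09.

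The other copies of ND1 and ND2 were then set beside the pair on chromosome 17. Of 33 MTND1 copies 3 were above background, MTND1P14, MTND1P11 and MTND1P23, and the family's median log2 difference was 0.01. MTND1P11, in an insertion on chromosome 9, was at 6.96 and 6.93 untreated and at 6.60 and 7.16 treated, so its groups overlapped. MTND1P6 on chromosome 8, named because it was the only copy at least 1 log2 unit lower (0.302% of copies, against 0.978% of all rows), was at 4.19 and 4.27 untreated and at 2.71 and 3.37 treated, below background in every array. Its difference of -1.19 (SE 0.25) did not pass in the default fit (limma adjusted p = 0.188) or the trended fit (limma adjusted p = 0.104). Of 31 MTND2 copies, 2 were above background, MTND2P12 and MTND2P28, and the family's median difference was 0.10. MTND1P14, MTND2P12 and MTCO1P39 were the only copies at least 1 log2 unit higher, 0.906% of the copies against 0.499% of all rows.

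**Figure D3:**
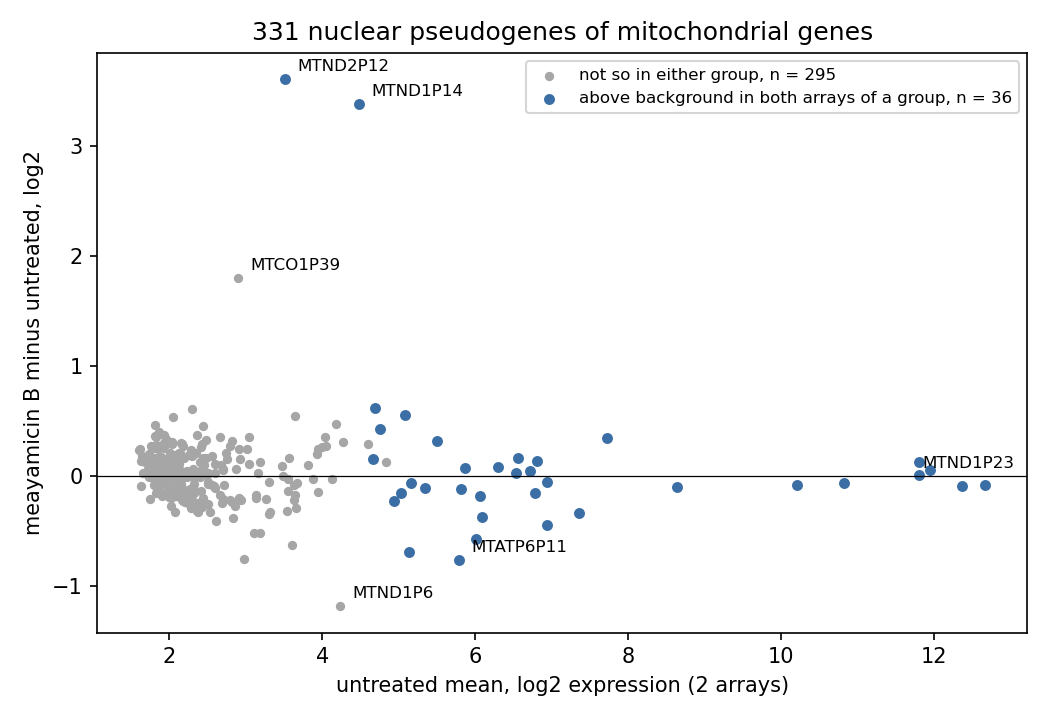
Log2 difference, meayamicin B minus untreated, against the untreated mean log2 expression for each of the 331 copies, with the 36 rows above background in both arrays of a group in blue. MTND1P14 and MTND2P12, at 3.38 and 3.60, stand apart from the rest, and the bright copies on the right lie between -0.10 and 0.13.

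The whole set was then compared with all rows. The median log2 difference of the 331 copies was 0.02, as over all 135750 rows, where it was 0.02. Both treated arrays lay above both untreated arrays in 65 copies, or 19.6%, against 21.1% of all rows, and below them in 53 copies, or 16.0%, against 17.9% of all rows. An unadjusted p under 0.05 was found in 12 copies, or 3.63%, against 9.42% of all rows. Family medians ran from -0.16 in 20 copies of ND3 to 0.15 in 25 copies of ND6, both families of complex I genes. The median of 29 cytochrome b copies was 0.09. It was 0.01 in 40 copies of COX1, -0.02 in 28 copies of COX2 and 0.03 in 32 copies of COX3, the core subunits of complex IV, and -0.03 in 21 copies of ATP6, a subunit of the proton channel of ATP synthase.

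**Figure D4:**
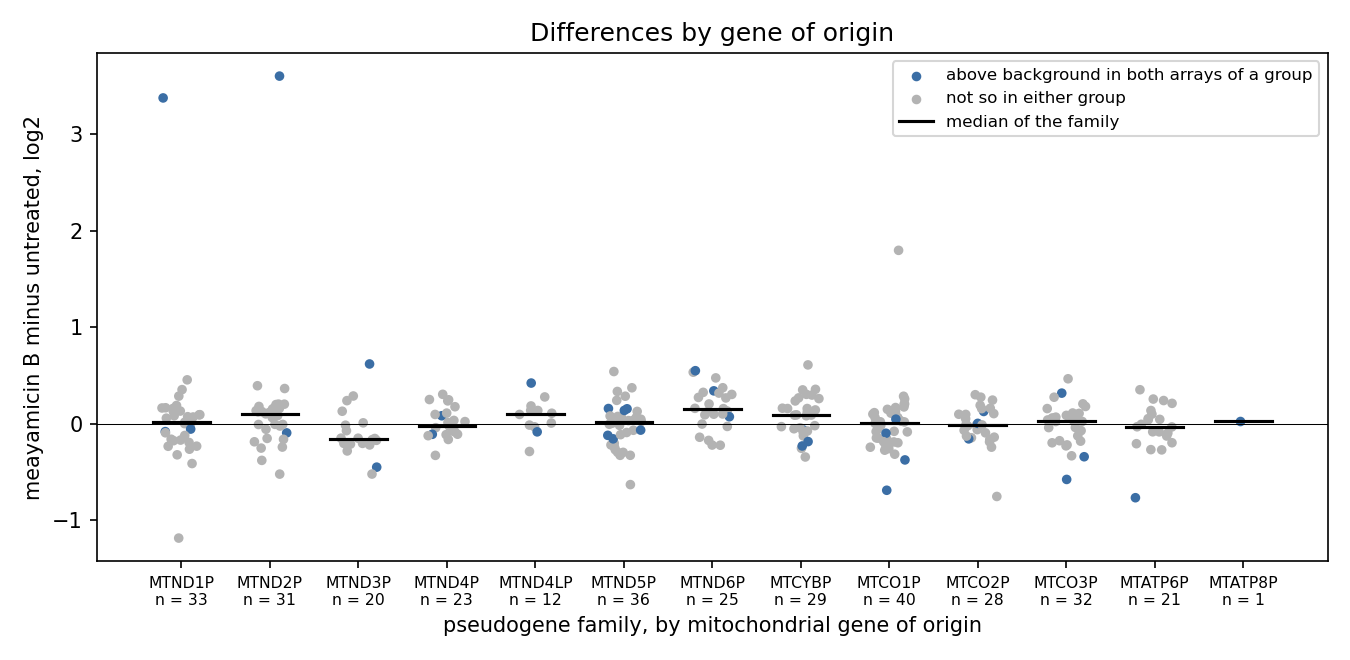
Log2 difference, meayamicin B minus untreated, of each copy by the mitochondrial gene it derives from, with the family median as a bar and rows above background in blue. Medians lie between -0.16 and 0.15, and the points above 1.5 are MTND1P14, MTND2P12 and MTCO1P39.

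Besides MTND1P14 and MTND2P12, 34 copies were above background, and 0 of them passed in limma's default or trended fit. Among all 30594 rows above background, 21 passed in the default fit and 1450 in the trended fit. Of the 34 copies 1 had an unadjusted limma p under 0.05, against 9.42% of all rows. When the 30594 rows above background were fitted alone, 6779 of them had such a p. The log2 differences of the 34 copies ran from -0.77 to 0.62, with 15 above and 19 below 0 and a median of -0.07. MTATP6P11, a copy of ATP6 on chromosome 9 at 5099560 to 5100229, had the lowest value. It was at 5.56 and 6.01 untreated and at 4.82 and 5.21 treated, a difference of -0.77 (SE 0.24, limma adjusted p = 0.365 and 0.274 in the trended fit), and 1 of its treated arrays exceeded background.

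Other copies at the lower end were MTCO1P31 on chromosome 5, at 4.71 and 5.56 untreated and at 4.33 and 4.55 treated, and MTCO3P42 on chromosome 4, at 5.63 and 6.40 untreated and at 5.62 and 5.25 treated. In both the untreated arrays lay well apart and both treated arrays lay below them, and MTCO1P31 was below background in both treated arrays. MTND3P22 differed by -0.45 (SE 0.27) and MTCO1P11 by -0.38 (SE 0.29), and in both the groups overlapped. At the upper end MTND3P5 was at 4.61 and 4.76 untreated and at 5.77 and 4.84 treated, and MTND6P3 was at 4.88 and 5.27 untreated and at 5.87 and 5.38 treated. MTND3P5 differed by 1.15 in the replicate 1 pair and by 0.08 in the replicate 2 pair, and MTND6P3 by 0.99 and 0.11, so a single treated array carried most of each difference.

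Several of these copies lie inside genes, and their values were set beside those of the host. MTND4P9, MTND4LP22, MTND3P5 and MTCO3P44 form one insertion of 2.98 kb within SEL1L3 on chromosome 4, from 25718082 to 25721056. With rising number they stand in reverse mitochondrial order. Their log2 differences were 0.08, 0.42, 0.62 and 0.32, and 0 of the 4 passed in either limma fit. In 3 of the 4 both treated arrays were the higher ones, as in 21.1% of all rows. MTND4LP22 and MTND3P5 each exceeded background in only 1 treated array. SEL1L3 itself had a mean of 11.44 untreated and 11.13 treated, a difference of -0.31 (SE 0.18, limma adjusted p = 0.680). KIAA0825 on chromosome 5 held MTND5P12 and MTND6P3, which differed by -0.12 (SE 0.19) and 0.55 (SE 0.25). KIAA0825 itself was below background in every array. It differed by -1.06 (SE 0.21, limma adjusted p = 0.170) and passed in neither fit.

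Within PCBD2 on chromosome 5, a gene of a dimerization cofactor of a transcription factor, lay MTND6P4, MTCYBP18 and MTND5P11, with differences of 0.34 (SE 0.20), -0.07 (SE 0.19) and 0.14 (SE 0.19). MTND6P4 was at 7.71 and 7.74 untreated and at 7.91 and 8.22 treated. PCBD2 had a mean of 7.91 untreated and 7.31 treated, a difference of -0.60 (SE 0.19, limma adjusted p = 0.364). The 8 adjacent copies on chromosome 9 lay within the RefSeq intervals of both JAK2, the kinase gene, and INSL6, an insulin-like peptide gene, over 19.66 kb, and 5 of them were above background, with a group range of -0.77 to 0.32. JAK2, which had 2 rows, differed on its brighter row by -0.52 (SE 0.26, limma adjusted p = 0.622). INSL6 differed by 0.15 (SE 0.19, limma adjusted p = 0.874) and was below background in all 4 arrays.

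In all, 122 copies lay inside another RefSeq gene, 24 of them above background, and 209 lay outside, 12 of them above background. Inside genes the highest log2 difference was 0.62 and 0 copies were called, with a median of -0.06 among those above background. Outside genes the highest was 3.60 and 2 copies were called, with a median of -0.02 among those above background. Of all rows tested, 0.0162% were called. The called copies were MTND1P14 and MTND2P12, above background in both arrays only when treated. They had drawn attention in earlier results of the same data, so nothing about position is read from these counts. The strand of the copies is not given in the tables used, so copies on the strand of their host and on the other strand were counted together. Of 68 adjacent groups, 9 held a row above background, and the chromosome 17 insertion was the only one with a row called in the default fit or with a group median of at least 1.

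The 5 copies with the highest untreated means did not pass in either fit. MTND1P23, MTND2P28, MTCO1P12 and MTCO2P12 form one insertion on chromosome 1, from 629062 to 633438, in mitochondrial order. All but MTND1P23 had 99.7% to 100.5% of the length of the parent, and MTND1P23 had 39.6%. MTND1P23 was at 12.65 and 12.68 untreated and at 12.64 and 12.53 treated, and MTND2P28 was at 12.38 and 12.35 untreated and at 12.41 and 12.13 treated. MTCO1P12 was at 11.97 and 11.92 untreated and at 12.05 and 11.94 treated, and MTCO2P12 was at 11.71 and 11.89 untreated and at 12.05 and 11.81 treated. The 4 differences, in that order, were -0.08, -0.10, 0.06 and 0.13, with 95% confidence intervals within -0.56 and 0.59. MTCO2P2, a short copy of COX2 inside SMAD2 on chromosome 18, was at 11.76 and 11.84 untreated and at 11.84 and 11.76 treated.

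The parent genes were measured on rows of the mitochondrial chromosome. ND1 was at 13.12 and 13.13 untreated and at 13.10 and 12.94 treated, a log2 difference of -0.11 (SE 0.19). ND2 differed by -0.12 (SE 0.18), COX1 by -0.07 (SE 0.18), COX2 by -0.04 (SE 0.18) and ND3 by 0.00 (SE 0.19). ND5 differed by -0.07 (SE 0.18), CYTB by -0.03 (SE 0.19) and ND6 by 0.16 (SE 0.19), and the rows shared by ATP8, ATP6 and COX3 and by ND4L and ND4 by -0.12 and -0.08. Of 22 mitochondrial rows 21 were above background, 0 passed in either limma fit, and 1 had an unadjusted p under 0.05. It had no symbol and the highest difference, 0.53. The 12 rows with no symbol had a median difference of 0.18, against -0.05 in the 8 rows with 1 symbol. In ND6 and the run of unnamed rows numbered just before it, both treated arrays lay above both untreated arrays, as in 21.1% of all rows. These differences ran from 0.16 to 0.53. In ND1, ND2, COX1, COX2 and ND5 both treated arrays were the lower ones, as in 17.9% of all rows. The RNA of the mitochondrial genes may bind probes of the nuclear copies, and its part in the values of the bright copies and of the chromosome 17 copies was not tested.

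**Figure D5:**
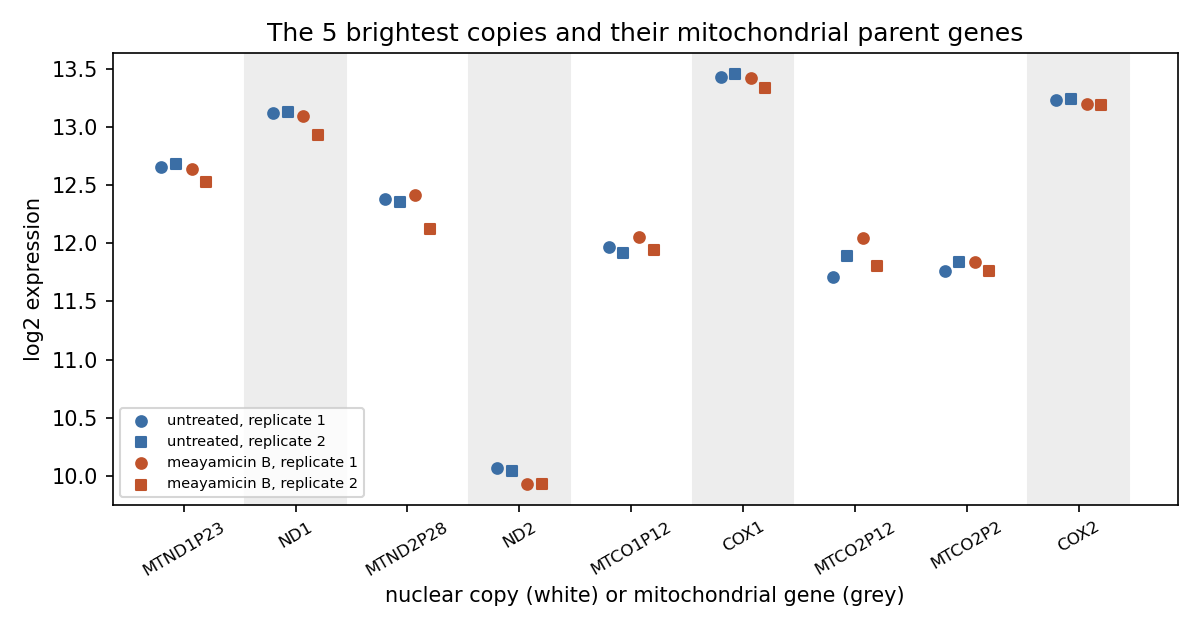
Log2 expression in each of the 4 arrays of the 5 copies with the highest untreated means (white background) and of the mitochondrial genes they derive from (grey background). All rows shown differ by less than 0.2 between group means.

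Nuclear genes of mitochondrial transcription and RNA turnover were listed as the machinery of the parent genes. Of 28 listed genes 26 had a row, 25 of them above background, and their median log2 difference was -0.06. In the default fit 0 passed and 11, some lower and some higher, had an unadjusted limma p under 0.05. Such a p was found in 9.42% of all rows, and in 6779 of the 30594 rows above background when these were fitted alone. In the trended fit 4 fell and 1 rose, where 1.17% of all rows and 1450 of the 30594 rows above background were called. FASTK, a regulator of mitochondrial RNA, was at 7.41 and 7.49 untreated and at 6.44 and 6.33 treated (limma adjusted p = 0.0184 in the trended fit). PNPT1, a mitochondrial exoribonuclease, was at 9.65 and 9.32 untreated and at 8.40 and 8.41 treated (limma adjusted p = 0.00731 in the trended fit). LRPPRC, which stabilises mitochondrial mRNAs, and REXO2, an oligoribonuclease, fell by 0.63 and fell by 0.71 on the log2 scale in the trended fit. TFB2M, a mitochondrial transcription factor, was the gene that rose, at 9.79 and 9.52 untreated and 10.39 and 10.25 treated. MTPAP, the mitochondrial poly(A) polymerase, had a difference of 0.67 and did not pass (limma adjusted p = 0.0513 in the trended fit).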

How the data were processed

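Per the labels' protocols, RNA was labelled by a whole-transcript biotin method, and per the submitters' processing notes the arrays were summarised with RMA and Transcriptome Analysis Console on build hg38. Their versions are not given in the sources used here. Array values are log2 expression, deposited by the authors as 1 value per row and array. RMA equalises the distributions of the arrays, so a shift of all RNA would be removed. Control rows (2995 of 138745) were left out, and 36176 of the 135750 rows tested had 1 symbol, 1119 several and 98455 none in the platform annotation. Groups came from the titles.

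Groups were compared by lmFit and eBayes of limma 3.58.1 (R 4.3.3), using Benjamini-Hochberg adjustment over all rows and a threshold of 0.05. The trended fit used an intensity-dependent and robust prior. The fits were tested on simulated data. The members, lists and the second fit were chosen with earlier results of these data known. Rows named are those called in either fit with their adjacent rows, the 5 highest and 5 lowest differences and the 5 highest untreated means above background, the nearest genes, the mitochondrial rows and 2 list genes at either end by moderated t. Other list genes called in the trended fit, MTND1P6 and the further copies described inside host genes were named after their values were seen. The rule asked for neighbours on the same strand, which could not be applied to the copies. Deviations of same-numbered arrays had a correlation of 0.02 taken across all rows and of 0.07 across rows above background, so no pairing was used.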

Additional observations from a re-analysis of the deposited data

How the results depend on the processing

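The 2 calls among the copies held with the replicate number as a block (2 copies), without dim rows, after quantile normalization and after centring on 79 ribosomal protein rows, and they are the same 2 copies at a 2-fold minimum. Leaving out any array of the default fit, with 1 residual degree of freedom, gave 0 copies and 0 of all rows in limma (10 to 16 copies with an unadjusted p under 0.05), while the difference of MTND1P14 ran from 3.15 to 3.61 and that of MTND2P12 from 3.45 to 3.76. The trended fit gave 2 to 3 copies when an array was left out, an alternative added after the data were seen. With a replicate block it gave 4 copies, the fourth being MTND1P6, and 1 of the unnamed neighbours, the row between MTND1P14 and MTND2P12, and it also called the row 8 numbers after MTND1P14, which was lower. The row between MTND1P14 and MTND2P12 also passed without treated replicate 1, so 0 to 1 neighbours were called. The count over all rows was 22, against 29 with the replicate block, 1589 in the trended fit, 1682 without dim rows, 36 with ribosomal centring, 3546 in the trended fit with the block and 462 to 1303 in the trended fit without an array (678 without untreated replicate 1, 821 without treated replicate 2). The median difference of the copies, 0.02, was -0.0616 without dim rows (36 copies), -0.0018 after quantile normalization, -0.019 with ribosomal centring and 0.0017 to 0.0327 without an array. With background at the 99th percentile 25 of the 36 copies stayed above it, and adjacent groups numbered 68 to 73. Signal near background limits the remaining copies, since 293 were never above it.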

Other observations

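Rows outside the set carry related sequences. Of 17 rows naming a copy together with other genes, 3 were above background, and 0 passed in either limma fit while 1 had an unadjusted p under 0.05. The row shared by MTCO3P12, MTATP8P1 and MTATP6P1, which continues the bright insertion on chromosome 1, was at 11.63 and 11.54 untreated and at 11.71 and 11.47 treated. The row shared by MTND4LP30 and MTND4P12 was at 10.08 and 10.16 untreated and at 10.10 and 9.73 treated, and the row shared by MTND4P24 and MTCO1P53 at 8.05 and 8.16 untreated and at 8.14 and 8.15 treated. In each of these 3 rows the groups overlapped.

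The MTRNR2L rows, nuclear copies of the mitochondrial large ribosomal RNA named for their likeness to the humanin reading frame, were 11 in number, 6 of them above background. Their log2 differences ran from -0.19 to 0.13, and 0 passed in either limma fit or had an unadjusted p under 0.05. MTRNR2L9 was at 10.16 and 10.17 untreated and at 10.28 and 10.16 treated, and MTRNR2L1, on chromosome 17, was at 9.08 and 9.05 untreated and at 9.13 and 8.96 treated. A row 8 numbers after MTND1P14, with no gene name, was at 3.80 and 4.23 untreated and at 2.89 and 2.29 treated, below background in all arrays, and its difference of -1.43 (SE 0.27) had limma adjusted p = 0.151, and 0.0538 in the trended fit. It passed in the trended fit with the replicate number as a block (limma adjusted p = 0.0149), an alternative added after the data were seen.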
